A study of Rattus norvegicus with 18 samples.

Results

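Gcg and Sst, the hormone genes of the alpha and delta cells of the islet, were followed in sorted rat beta cells as a check on other islet cells. They are 2 of the 27654 genes in the deposited count table, chosen by name, and both passed the filter on low counts that left 14920 genes. The tables list genes by Ensembl ID only. Gcg is ENSRNOG00000005498 and Sst is ENSRNOG00000001837, a pairing that came with the question and that no table used here could check. The series has 18 libraries from 9 batches of islets, each batch from 2 rats, with a replicating and a quiescent sample per batch. Islets of young or old rats were kept overnight in RPMI1640 with 10% FBS and 11.1 mM glucose and given 10 micromolar EdU, a thymidine analogue that marks cells making DNA. This culture and EdU exposure is common to all groups, which were quiescent and replicative cells of old rats (4 libraries each) and of young rats (5 libraries each). The sources used here do not state the strain, the age in weeks, the sort gate or how many cells made a library. The sample labels name the cells pancreatic islets and the series text names them beta cells. Beta cell markers were not analysed here, because no table pairs their names with IDs, so the labelled cell type was not checked against them. Whether the batches or libraries differ in other ways is not labelled, and p-values measure the spread between libraries of pooled rats. The labels do not say which libraries share a batch, and the main fit and the permutation tests do not pair them.

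Glucagon is made in alpha cells from the proglucagon precursor that Gcg encodes. It acts on the liver to raise blood glucose, and on beta cells through glucagon and GLP-1 receptors. Somatostatin, the product of Sst, is released by delta cells and holds back the release of both insulin and glucagon from their neighbours. Both genes are standard markers of these neighbours of the beta cell.

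Gcg was detected in all quiescent libraries, with less spread in old than in young ones. In CPM, read counts scaled to a common library size with TMM factors, old quiescent replicates 1 to 4 held 222, 152, 209 and 219.7, a mean of 201 ± 32.9 (SD, n = 4). Young quiescent replicates 1 to 5 held 163, 233, 213, 66.6 and 73.5, a mean of 149.8 ± 77.1 (SD, n = 5). Over all 9 quiescent libraries the highest value was 3.49 times the lowest. The gene ranked between 589th and 3093rd by count in these libraries, a rank that is not corrected for transcript length.

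In replicative libraries Gcg was either far above this range or within or close to it. Old replicative replicates 1, 3 and 4 held 2766, 1088 and 3039 CPM, while replicate 2 held 126, below every old quiescent library. Young replicative replicates 1, 2 and 3 held 3829, 2076 and 1463 CPM, while replicate 4 held 85.5 and replicate 5 held 240.2. So 6 of the 9 replicative libraries stood above 1000 CPM and none of the 9 quiescent ones did, and the other 3 replicative libraries stood under 250 CPM. This line at 1000 CPM was drawn after the values were seen. In all, 7 of 9 replicative libraries exceeded the highest quiescent value of 233 CPM, with young replicative replicate 5 barely above it. The old replicative mean was 1755 ± 1387 CPM (SD, n = 4). In the young replicative group the mean was 1539 ± 1528 CPM (SD, n = 5), so both spreads were about as large as the means.

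Where Gcg was high it was among the most counted genes of the library. It was 9th, 48th and 13th by count in old replicative replicates 1, 3 and 4, and 8th, 16th and 27th in young replicative replicates 1, 2 and 3. In old replicative replicate 2 and young replicative replicates 4 and 5 it was 1516th, 2385th and 626th. Its largest share of a library was 0.452% of counts, in young replicative replicate 1 (25191 reads, 95% exact binomial interval 0.446% to 0.458%). Its smallest share was 0.00551%, in young quiescent replicate 4 (784 reads, 0.00513% to 0.00591%). These intervals cover counting error only, since reads without molecular identifiers are not independent molecules. At such counts the counting error is far smaller than the gap between libraries.

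**Figure D1:**
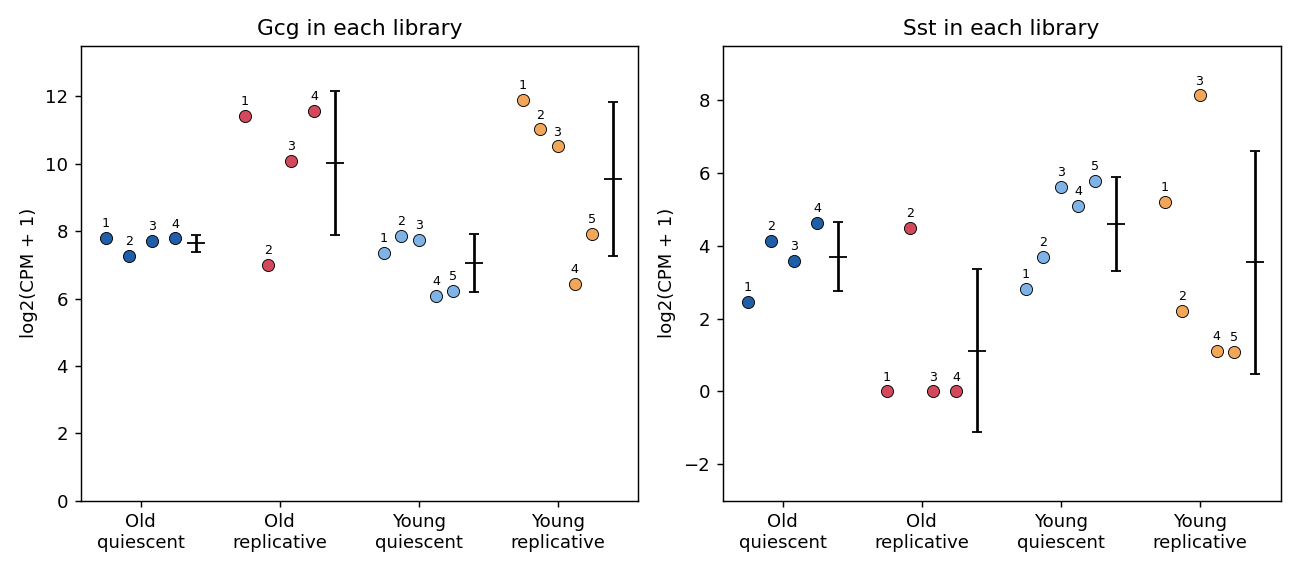
Levels of Gcg (left) and Sst (right) as log2(CPM + 1) in each of the 18 libraries, with the replicate number above each point. The cross bar and whiskers give the group mean ± SD on that scale. Gcg lies between 66.6 and 233 CPM in quiescent libraries and splits in replicative ones, with old replicate 2 and young replicates 4 and 5 at or near the quiescent range. Sst is at 0 counts in 3 of 4 old replicative libraries.

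Sst was a low to moderate signal in quiescent cells. Old quiescent replicates 1 to 4 held 4.50, 16.7, 10.9 and 24.0 CPM, a mean of 14.0 ± 8.31 (SD, n = 4). Young quiescent replicates 1 to 5 held 6.01, 12.0, 48.1, 33.4 and 54.7 CPM, a mean of 30.8 ± 21.5 (SD, n = 5). Its counts there ran from 32 to 399 reads, and the highest level was 12.1 times the lowest.

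In replicative libraries Sst was mostly below the quiescent range, with exceptions at both ages. Old replicative replicates 1, 3 and 4 had 0 reads among 6483890, 2975086 and 6688155, which at a floor of 3 counts allows a share of up to 4.63e-05%, 0.000101% and 4.49e-05% of counts. Old replicative replicate 2 had 206 reads and 21.5 CPM, within the old quiescent range. Young replicative replicates 4 and 5 had 7 and 6 reads, or 1.17 and 1.14 CPM, and replicate 2 had 33 reads, or 3.65 CPM. Young replicative replicate 1 had 36.0 CPM, within the young quiescent range, and replicate 3 had 2481 reads and 281 CPM, the highest Sst level of the series. Altogether 6 of 9 replicative libraries fell below the lowest quiescent value and 1 lay above the highest. The old replicative mean was 5.38 ± 10.8 CPM (SD, n = 4) and that of the young replicative group 64.7 ± 122 CPM (SD, n = 5), each set mainly by 1 library. The 3 old replicative libraries without reads, pooled and set at a floor of 3 counts over all 3, were at least 81.3-fold lower than the old quiescent mean. They were picked by their value, so this bound describes them and is no comparison of the groups.

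High Gcg came with Sst in some replicative libraries and without it in others. The 3 old replicative libraries with the highest Gcg had no Sst read, and the one with quiescent-like Gcg had Sst. In young cells, replicates 1 and 3 were high in Gcg with Sst at 36.0 and 281 CPM, and replicate 2 was high in Gcg with Sst at 3.65 CPM. Replicates 4 and 5 held 85.5 and 240.2 CPM of Gcg, with Sst at 1.17 and 1.14 CPM. A correlation over the 9 replicative libraries was planned but dropped after the values were seen, because these libraries split into separate sets by Gcg. Whether the 2 genes go together there was therefore not tested. Over the 9 quiescent libraries, the only relation computed, log2(CPM + 1) of Gcg and Sst had a Pearson r of -0.53 (exact permutation p = 0.144) and a Spearman rho of -0.47 (exact permutation p = 0.213), both two-sided, with an adjusted p of 0.213 over both measures. Without young quiescent replicates 4 and 5, the farthest from the median of Gcg, r was 0.13 (exact permutation p = 0.810), so the negative value rests on those 2 libraries. No correlation was computed within an age, where quiescent libraries number fewer than the 6 asked for here.

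**Figure D2:**
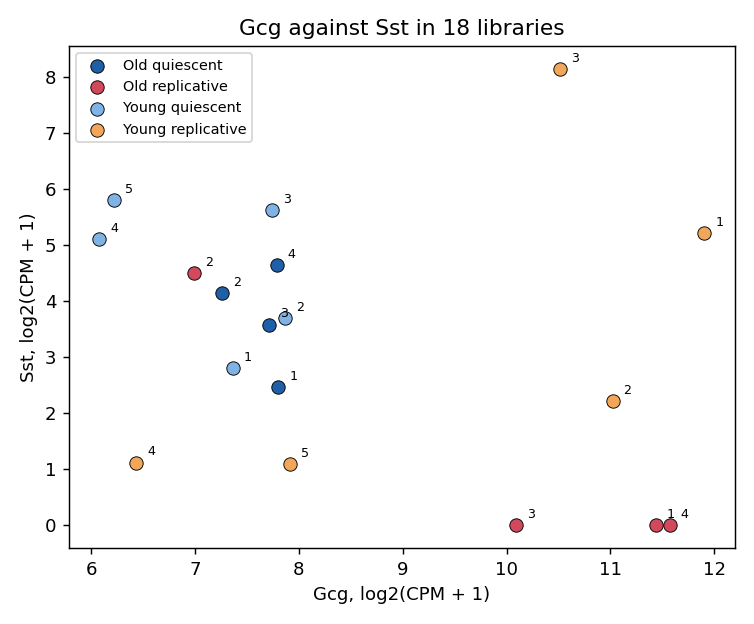
Gcg (horizontal) against Sst (vertical), both as log2(CPM + 1), in the 18 libraries, coloured by group and numbered by replicate. The quiescent libraries form a single cloud on the left. The 6 replicative libraries above 1000 CPM of Gcg lie on the right, spread from 0 to 281 CPM of Sst.

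The first comparison asked whether replicating and quiescent cells of old islets differed in these hormones. The Gcg log2 fold change was 3.13 (SE 1.01), 8.74-fold higher in old replicative libraries, and missed the threshold of 0.05 (quasi-likelihood F test of edgeR, Benjamini-Hochberg over all genes, adjusted p = 0.0531). In this comparison 13.8% of all genes tested were called. Gcg was higher than every old quiescent library in 3 of 4 old replicative libraries, and the groups overlapped. An exact permutation test on log2(CPM + 1), which makes no use of other genes, gave a difference of 2.38 (two-sided p = 0.143, adjusted p = 0.381 over 8 tests, smallest possible p 0.0286). At these group sizes, a lone comparison at its smallest possible p would still miss 0.05 after adjustment over 8 tests. The adjusted p-values of the permutation tests, here and below, are therefore no evidence against a difference. Fitted on the 8 old libraries alone, Gcg passed (log2 fold change 3.22, edgeR adjusted p = 0.0346), and so it did with DESeq2 (3.25, adjusted p = 0.00198), while limma-voom with sample weights gave 2.37 (adjusted p = 0.318). In that order, those fits called 540 of 12250, 3365 of 16876 and 1021 of 14920 genes. With the replicate number added as a block to the fit of 8 libraries, Gcg missed the threshold (2.61, edgeR adjusted p = 0.0547). In the fit of all 4 groups, Gcg passed without old replicative replicate 2 (3.49, edgeR adjusted p = 0.0182). It passed there too without young replicative replicate 1, 4 or 5, with a log2 fold change of 3.12 to 3.13 (edgeR adjusted p = 0.0465, 0.0140 and 0.0257). The 4 groups share a single spread estimate per gene in that fit. A young library acts on the old comparison only through that spread, the scaling and the set of genes tested. These calls therefore add no evidence from old cells.

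For Sst the same comparison gave a log2 fold change of -1.33 (SE 1.65, edgeR adjusted p = 0.658). The size depends on old replicative replicate 2, the only one of its group with Sst reads. Without it the fitted value was -9.63 and passed the threshold (edgeR adjusted p = 0.0309), a value set by the prior count because the remaining libraries are all at 0. The exact permutation test gave a difference of -2.58 on the log2(CPM + 1) scale (p = 0.114, adjusted p = 0.381), with 3 of 4 old replicative libraries below every old quiescent one. In bulk RNA, the number of cells of a type and the RNA per cell cannot be told apart, for Gcg as for Sst. Which cells the reads of either gene came from was not tested.

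In young islets the question was the same. The log2 fold change of Gcg between replicative and quiescent cells was 3.36 (SE 0.917), 10.3-fold, again short of the threshold (edgeR adjusted p = 0.0784), where 2.47% of all genes were called. Gcg was higher than in every young quiescent library in 4 of 5 young replicative ones. The exact permutation test gave a difference of 2.50 (p = 0.0556, adjusted p = 0.381, smallest possible p 0.00794). Gcg passed in the fit of the 10 young libraries alone (3.39, edgeR adjusted p = 0.0184), in DESeq2 (3.40, adjusted p = 0.000459) and in limma-voom with sample weights (3.47, adjusted p = 0.000651). In that order, those fits called 786 of 12970, 603 of 14412 and 2935 of 14920 genes, against 368 of 14920 in the main fit. With the replicate number added as a block to the fit of 10 libraries, Gcg still passed (2.56, edgeR adjusted p = 0.0302), where 1101 of 12970 genes were called. In the fit of all 4 groups it passed without young replicative replicate 4 (3.67, edgeR adjusted p = 0.00713) or 5 (3.64, edgeR adjusted p = 0.0212), the libraries with the lowest Gcg of their group. It passed there too without old replicative replicate 2 (3.35, edgeR adjusted p = 0.0213), which acts on young cells only through the shared spread, the scaling and the genes tested.

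Sst had no settled direction between replicative and quiescent young cells. The edgeR log2 fold change was 1.06 (SE 1.44, adjusted p = 1.00), and it was -1.52 without young replicative replicate 3 (edgeR adjusted p = 1.00). The mean of log2(CPM + 1) differed in the other direction, by -1.05 in replicative libraries (exact permutation p = 0.476, adjusted p = 0.544). The mean of CPM follows the 281 CPM of replicate 3, and the mean of logs follows the low values of replicates 2, 4 and 5.

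**Figure D3:**
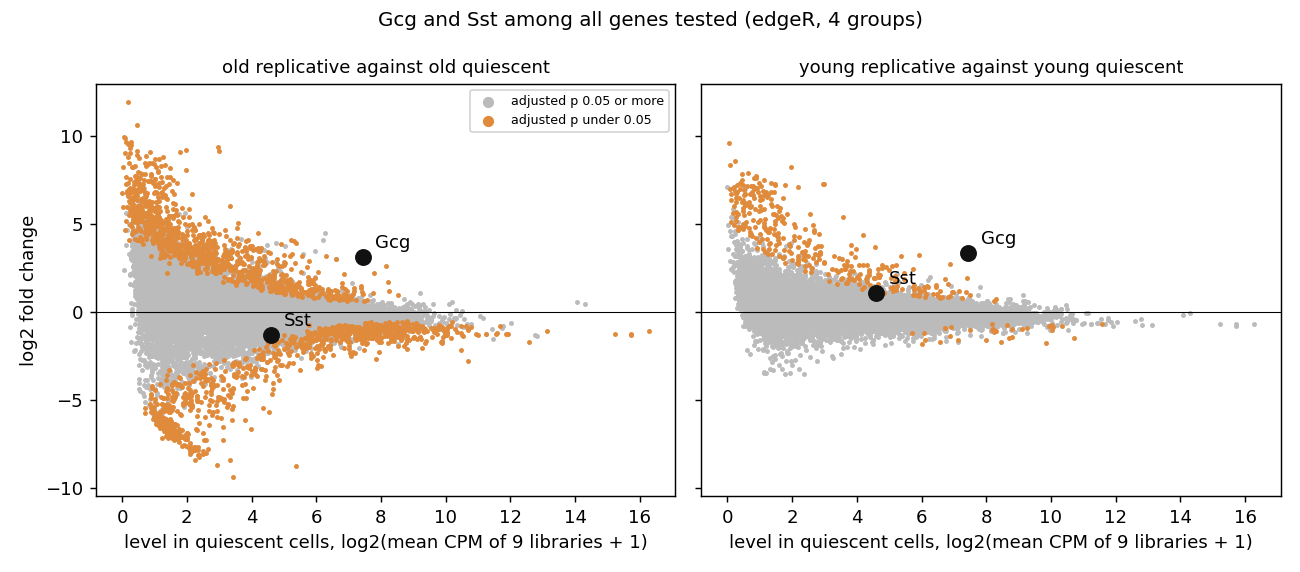
Log2 fold change (vertical) against the level in quiescent cells, as log2 of the mean CPM of 9 libraries plus 1 (horizontal), for the 14920 genes tested, old cells on the left and young cells on the right, with orange points past the adjusted p of 0.05. Gcg lies above every gene within 1 unit of its quiescent level in both panels, although it was not called in this fit. Sst has a log2 fold change of -1.33 in old and 1.06 in young cells and was called in neither.

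The Gcg fold change was next set beside those of genes with a like starting level, a description chosen after the values were seen. Of 1934 genes with a mean quiescent level within 1 log2 unit of Gcg, 0 had a larger log2 fold change in old and 0 in young cells, where their medians were -0.31 and -0.15. Of 4433 genes within 1 log2 unit of Sst, 90.6% in old and 4.29% in young cells had a larger value than Sst. The quiescent libraries enter both the level and the fold change. Over all genes tested, 7.79% in old and 1.55% in young cells had a larger log2 fold change than Gcg, and the medians were 0.01 and 0.03. For Sst, 88.4% in old and 11.9% in young cells had a larger value.

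Age made no difference that passed the threshold in either gene or state. In quiescent cells the log2 difference, old against young, was 0.43 (SE 0.887) for Gcg and -1.14 (SE 1.56) for Sst (edgeR adjusted p = 1.00 for both, with 0.0268% of all genes called). In replicative cells it was 0.19 (SE 0.884, edgeR adjusted p = 0.931) for Gcg, where 7.16% of all genes were called. For Sst it was -3.53 (SE 1.73, edgeR adjusted p = 0.242). Without old replicative replicate 2, Sst reached -11.82 (edgeR adjusted p = 0.0195), and without young replicative replicate 3 it was -0.96 (edgeR adjusted p = 0.760). The value of -11.82 is set by the prior count, because the remaining old replicative libraries are all at 0. The interaction, the replication difference in old minus that in young cells, was -0.24 (SE 1.26, edgeR adjusted p = 0.972) for Gcg and -2.40 (SE 2.19, edgeR adjusted p = 0.799) for Sst, with 0.0268% of all genes called. With standard errors this large, differences of several fold between the ages would not have been detectable. The exact permutation tests of the age differences gave p-values of 0.254 to 0.810 (smallest possible 0.0159), with adjusted p-values of 0.457 to 0.810.

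The order of the mean levels was old replicative, young replicative, old quiescent and young quiescent for Gcg, and no neighbours in it differed past the threshold, except that young replicative against old quiescent cells was not tested. For Sst the order was young replicative, young quiescent, old quiescent and old replicative, and no neighbours in it differed past the threshold. The first place of young replicative cells rests on replicate 3, and by the mean of log2(CPM + 1) the order was young quiescent (4.61), old quiescent (3.71), young replicative (3.56) and old replicative (1.12).

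**Figure D4:**
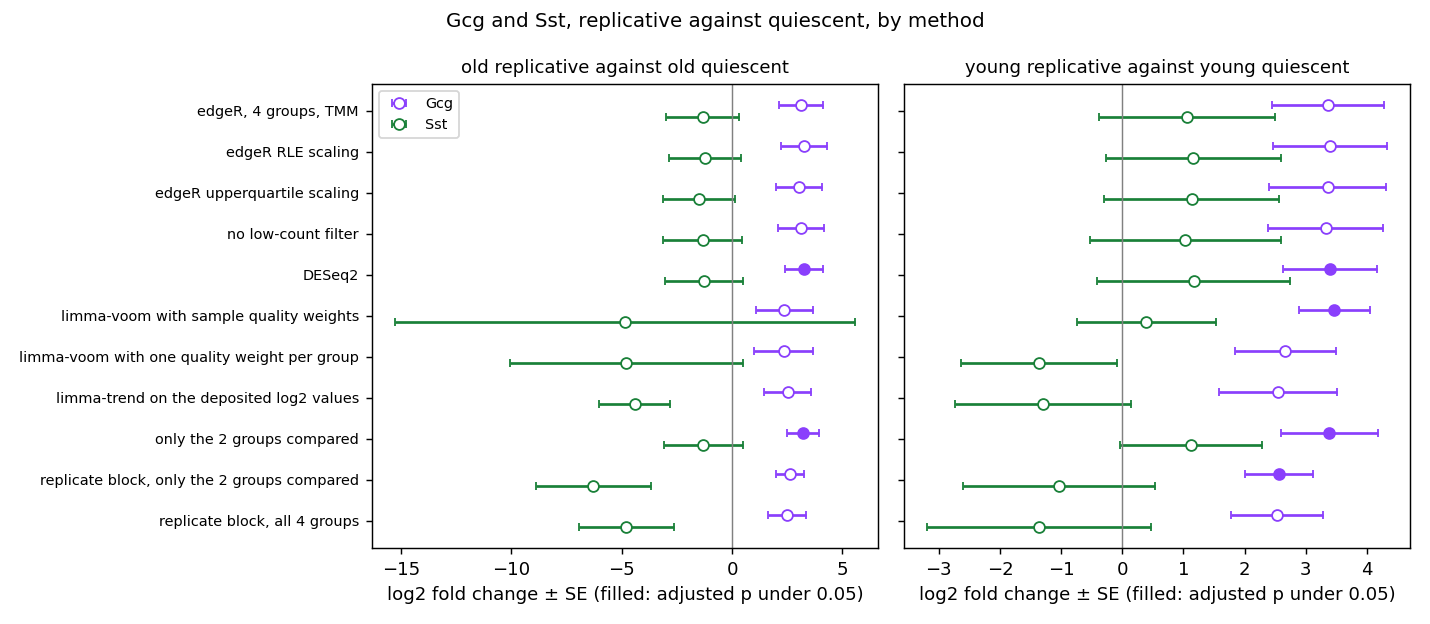
Log2 fold change ± SE (horizontal) of Gcg and Sst by method (vertical), in old cells on the left and young cells on the right, with different horizontal scales. Filled points had an adjusted p under 0.05. Gcg is above 0 in all 11 fits of each panel and filled in 2 on the left and 4 on the right, while Sst changes sign in young cells and is filled in none.

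Both genes varied more between libraries of a group than the trend at their average level over all libraries. The biological coefficient of variation, the relative spread beyond counting noise, was 0.856 for Gcg against 0.321 for the trend. For Sst it was 1.57 against 0.551, the 114th largest of 14920 genes. Set beside genes within 1 log2 unit of its level in the same group, a match chosen after the values were seen, Gcg had a smaller coefficient of variation than 36.6% of 1710 genes in old quiescent and 1.24% of 2172 genes in young quiescent libraries. In old replicative libraries 13.0% of 54 genes had a larger one, and in young replicative libraries 0 of 59 did. By these shares the spread of Gcg was large for its level in young cells of both states, and less so in old cells. Whether the spread differed between the ages was not tested. For Sst, 4.13% of 4096 genes had a larger coefficient of variation in old quiescent, and 0.901% of 4440 in young quiescent libraries. In old replicative libraries 0.358% of 3352 genes had a larger one, and in young replicative libraries 0.025% of 3994. Both of these replicative values of Sst rest mainly on 1 library.

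The totals and gene numbers of the replicative libraries stood as follows beside their Gcg levels. Old replicative replicates 1 to 4 held 6483890, 8639541, 2975086 and 6688155 counts, and young replicative replicates 1 to 5 held 5573995, 8242896, 8004759, 5790871 and 5439091. The number of genes detected, computed by rarefaction to the smallest depth of 2723660 counts, was 16846, 13900, 11738 and 12437 in old replicative replicates 1 to 4. In young replicative replicates 1 to 5 it was 21848, 18822, 19752, 14507 and 14014. In old cells the library with low Gcg, replicate 2, had the largest total. In young cells the totals of libraries above 1000 CPM and under 250 CPM of Gcg interleaved. In young cells the 3 libraries with high Gcg had the most genes detected, and in old cells no such order was seen. The part of depth and of library complexity in the Gcg levels was not tested.

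The genes most like each hormone over the 18 libraries were ranked by Pearson r of log2(CPM + 1), among 7805 genes with an average log2 CPM of at least 4. They can be given by ID only. For Gcg they were ENSRNOG00000003139 (r = 0.85, and 0.73 within groups after subtraction of group means) and ENSRNOG00000000303 (r = 0.84, and 0.73 within groups). No gene reached 0.9 and 4 exceeded 0.8. Mean CPM of ENSRNOG00000003139 went from 208 (quiescent) to 314 (replicative) in old and from 202 to 292 in young cells, a far smaller span than Gcg. Mean CPM of ENSRNOG00000000303 went from 8.04 to 26.6 in old and from 7.76 to 30.8 in young cells. Neither gene passed the threshold at either age (edgeR adjusted p = 0.0538 to 0.313). For Sst they were ENSRNOG00000048577 (r = 0.75, and 0.62 within groups) and ENSRNOG00000000549 (r = 0.75, and 0.78 within groups), with no gene above 0.8. These values describe a choice of the highest among many genes and carry no test, and the libraries share batches.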

How the data were processed

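Libraries were made from sorted cells with a stranded total RNA kit after lysis in the buffer of a kit for fixed tissue, per the labels' protocols. The submitters' processing notes name STAR, DESeq2 and the rn6 build without saying what each did. Which program and annotation gave the counts, and with which strand setting, is not given in the sources used here. Raw read counts per gene, as deposited by the authors, were the input. The deposited log2 table was recomputed from the counts as the log2 of count over a median-of-ratios size factor, plus 1 (largest difference 5.3e-14). Total counts ran from 2723660 to 14222719 per library.

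Counts were fitted in R 4.3.3 with edgeR 4.0.16 (filterByExpr defaults by group with a minimum count of 10, TMM, robust quasi-likelihood F test) as 4 group means over 18 libraries. The fit was also run on simulated counts whose spread was set at the trend. Gcg and Sst vary more than the trend, so that run does not cover them. P-values were adjusted by Benjamini-Hochberg over 14920 genes (threshold 0.05). Standard errors are the fold change over the square root of F. Exact permutation tests used scipy 1.17.1 on log2(CPM + 1). Alternatives were other scalings, DESeq2 1.42.0, limma 3.58.1, no filter, fits of 2 groups, a replicate block and each library left out; the quality weight per group was chosen after seeing the data. The members, lists and tests were chosen with earlier results of these data known. Besides both hormones, the rule for named genes took the 2 genes with the highest correlation to each. Of the table's IDs, 0 matched a symbol in the reference of 47357 genes, so the 12 planned lists of cell type markers and pathways were not run.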

Additional observations from a re-analysis of the deposited data

Results flagged for a closer look

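Sst in old replicative replicate 2, at 21.5 CPM, stood far from the other 3 libraries of its group, which are at 0 (its gap to the nearest library is the whole range of the group). Sst in young replicative replicate 3, at 281 CPM, stood far from the other 4, the next of which is at 36.0 CPM (gap over range 0.876). Each of the 8 groups of values was looked at with Dixon's ratio of CPM, not of logs, at its 95% critical value. Chance marks about 1 in 20 such groups only where values are normally distributed, which is not given for low, skewed counts. With 3 libraries tied at 0, any other value of the last library gives the same ratio. These marks therefore describe the values and carry no test. The Gcg values of the replicative groups gave ratios of 0.330 in old and 0.468 in young cells, under the critical value. Neither difference between the ages passed the interaction test.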

How the results depend on the processing

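Gcg was higher in replicative cells in all 28 alternatives at each age. It passed the threshold in 6 of 28 in old cells (log2 fold change 2.34 to 3.49, adjusted p 0.00198 to 0.387) and in 7 of 28 in young cells (2.53 to 3.67, adjusted p 0.000459 to 0.329). It did so with DESeq2 (3.25 in old, 3.40 in young), in the 2-group fits (3.22 and 3.39) and, in young cells, in limma-voom with sample weights (3.47). With single libraries left out, Gcg ran from 2.66 to 3.49 in old and from 2.69 to 3.67 in young cells. For Sst the leave-one-out ranges were -9.63 to -0.94 in old cells, -1.52 to 1.40 in young cells and -11.82 to -0.96 between the ages in replicative cells. The Sst value in young cells turned negative with limma-trend on the deposited values (-1.29) and with a weight per group (-1.36). Between the ages in replicative cells, Gcg turned negative with upper-quartile scaling (-0.00019) and sample weights (-0.79), and ran from -0.25 to 0.84 with libraries left out (-0.32 to 1.47 in the permutation test). The interaction ran from -0.67 to 0.43 for Gcg and from -10.70 to 0.17 for Sst with libraries left out (Gcg -1.10 with sample weights). The correlation over quiescent libraries went from -0.53 to 0.13 without the 2 farthest. The cause of these changes was not tested.

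Same-numbered quiescent and replicative libraries deviated together with correlations of 0.0714 to 0.506, and each of the 9 quiescent libraries correlated best with its own number. As 2 of these values lie under 0.1 and no label ties a number to a batch, the numbers were not taken as pairs. With a replicate block Gcg was 2.51 in old (edgeR adjusted p = 0.0941) and 2.53 in young cells (edgeR adjusted p = 0.184) in the 4-group fit. In the 2-group fits with the replicate block it was 2.61 (edgeR adjusted p = 0.0547, so the call of that fit in old cells was lost) and 2.56 (edgeR adjusted p = 0.0302). By number, Gcg was higher in the replicative library in 3 of 4 old and 5 of 5 young cases. Sst in young cells was -1.36 and -1.04 with the replicate block. The replicate block gave 1957 and 473 calls in old cells and 400 and 1101 in young cells (4-group and 2-group fits).

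Numbers of genes called differed with the method, so the background shares do too. Replication in old cells called 2053 genes (473 to 3365 over alternatives), in young cells 368 (293 to 2935). Age called 4 in quiescent cells (0 to 1571), 1069 in replicative cells (30 to 2578), and the interaction 4 (0 to 383). The median of all genes in old cells moved by 0.13 with RLE and by -0.11 with upper-quartile scaling, against a Gcg value of 3.04 to 3.25. Sst counts of 0 to 7 in 5 replicative libraries limit its fold changes.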

Other observations

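The ratio of Gcg to Sst reads, which is a ratio of reads and not of transcripts per length, ran from 1.34 to 49.4 in the 9 quiescent libraries. It was lowest in young quiescent replicates 4 and 5 (1.99 and 1.34) and highest in old quiescent replicate 1 (49.4). In young replicative replicates 1 to 5 it was 106, 569, 5.20, 73.0 and 210.3, so replicates 4 and 5 had a high ratio with Gcg under 250 CPM. Old replicative replicate 2 had a ratio of 5.85, and at a floor of 3 Sst counts per library the ratios of replicates 1, 3 and 4 were at least 6803, 1155 and 6887.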
